A study of Arabidopsis thaliana with 16 samples.

Results

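A copy of the mitochondrial genome sits in the nuclear genome of Arabidopsis thaliana beside the centromere of chromosome 2, and its small RNA reads are described here gene by gene and transposon by transposon. The rows taken were those of the deposited RIP-seq table whose start falls in a fixed window of chromosome 2 (TAIR10) around the insertion, from AT2TE13965, which starts at base 3234189, to AT2G05395, which starts at base 3509690. This gave 208 of the table's 65386 rows: 170 genes and 38 transposable elements (TEs). The choice used position only and no measured value. RIP-seq sequences the RNA that is pulled down with a protein. The first group carried GFP-tagged ARGONAUTE5 (AGO5) behind the AGO5 promoter, and its tagged protein was precipitated. The second carried GFP-tagged ARGONAUTE9 (AGO9), also behind the AGO5 promoter, so AGO9 was made where that promoter is active and not only where the plant's own AGO9 gene is. The third expressed GFP alone from the 35S promoter. The fourth was input RNA without precipitation, with replicate 1 from the GFP-AGO5 line and replicate 2 from the GFP-AGO9 line. No input came from the GFP-only line, so in GFP against input the plant line and the precipitation cannot be told apart. In AGO5 or AGO9 against GFP, the tagged protein, the promoter and the plant line changed together and cannot be told apart either. In AGO5 or AGO9 against input, 1 of the 2 inputs came from the other line. The Col-0 background was common to these plants, which grew on soil in long days. Each of the 4 kinds of library was made from shoot apices at 7 days and from inflorescence meristems, floral meristems and young buds at 35 days, with 2 libraries per group and 16 in all. Tissue and age changed together, so they cannot be told apart. The labels do not say whether the 2 libraries of a group came from separate plants, so the p-values measure only the spread between these libraries. Small RNA reads give no direct reading of tissue marker mRNAs, so the labelled tissues were not checked that way.

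Organelle DNA enters the nucleus from time to time, and the insertion on Arabidopsis chromosome 2 is the best known large one in plants. Argonaute proteins hold small RNAs and use them to find matching transcripts. AGO9 is a relative of AGO4 and mainly binds the 24 nt small interfering RNAs of RNA-directed DNA methylation, which come largely from TEs and repeats. AGO5 belongs to the AGO1 branch and binds small RNAs of several lengths. Organelle transcripts leave degradation fragments of many lengths in any small RNA library.

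Nearly the whole insertion repeated the mitochondrial sequence. Aligned with the RefSeq mitochondrial genome of 367808 bp, bases 3239038 to 3509765 of chromosome 2 were covered over 99.6% by 17 blocks of 2000 bp or more, at a weighted identity of 99.9%. Of the 208 rows, 205 had a mitochondrial copy over at least 90% of their length at 95% identity or more, with a median identity of 100%. The 3 without one were AT2TE13965, AT2TE13970 and AT2G05395, with means of 0.121, 0.949 and 0.780 RPM (reads scaled to the total of the library). Of the 270705 positions at which a 24 nt word could start, 97.9% held a word also present in the mitochondrial genome. How reads with several matches were placed is not given in the sources used here. So a read counted on one of these rows may have been made from the mitochondrial genome, and the 2 origins cannot be told apart for the 205 rows.

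The sequences below show the edges of the insertion, the members that the results turn on, and a base that separates the 2 copies. All are from the TAIR10.1 RefSeq assembly, whose coordinates equal those of the deposited table for the 170 gene rows. At the edges, on the plus strand, capitals mark bases inside 24 nt words that the mitochondrial genome also holds, so the capitals begin and end where the insertion does. They are chr2:3238998-3239077 and chr2:3509725-3509804.
Left edge: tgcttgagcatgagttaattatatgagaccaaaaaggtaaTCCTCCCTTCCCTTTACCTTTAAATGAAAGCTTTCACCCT
Right edge: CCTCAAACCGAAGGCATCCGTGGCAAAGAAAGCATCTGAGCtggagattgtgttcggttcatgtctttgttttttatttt
The TE with the most reads, AT2TE14330, lies at chr2:3309016-3311366 on the minus strand. Its first 120 bases, chr2:3311247-3311366, are shown with the same use of capitals, and every base is matched in the mitochondrial genome.
AT2TE14330: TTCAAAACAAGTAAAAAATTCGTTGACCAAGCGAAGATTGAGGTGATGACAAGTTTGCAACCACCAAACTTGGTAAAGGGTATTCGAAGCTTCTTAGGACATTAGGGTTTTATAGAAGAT
Some members also match the plastid genome, because mitochondrial genomes of plants took up plastid DNA. In the next sequences, all but the first on the minus strand, capitals mark bases in 24 nt words shared with the plastid genome. AT2G07746 (chr2:3276440-3276511, plus strand) is a glutamine tRNA gene with no such word, and AT2G07743 (chr2:3255832-3255905) is an aspartate tRNA gene that shares 57 of its bases.
AT2G07746: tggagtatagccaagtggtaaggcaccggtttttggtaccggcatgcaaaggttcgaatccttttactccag
AT2G07743: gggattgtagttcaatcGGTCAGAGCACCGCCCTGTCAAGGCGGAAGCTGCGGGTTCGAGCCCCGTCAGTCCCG
AT2G07732 (chr2:3468160-3468899) resembles rbcL, the plastid gene of the large Rubisco subunit, and AT2G07688 (chr2:3331754-3332146) is annotated as a pseudogene of photosystem II reaction center protein A. Stretches of 200 bases are shown, chr2:3468232-3468431 and chr2:3331868-3332067, with 197 and 149 bases in capitals.
AT2G07732: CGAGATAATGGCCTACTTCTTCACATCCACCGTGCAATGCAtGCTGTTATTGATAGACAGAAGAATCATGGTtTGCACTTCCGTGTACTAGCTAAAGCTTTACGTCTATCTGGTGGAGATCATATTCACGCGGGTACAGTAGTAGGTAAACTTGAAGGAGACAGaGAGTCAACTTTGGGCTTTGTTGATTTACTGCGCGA
AT2G07688: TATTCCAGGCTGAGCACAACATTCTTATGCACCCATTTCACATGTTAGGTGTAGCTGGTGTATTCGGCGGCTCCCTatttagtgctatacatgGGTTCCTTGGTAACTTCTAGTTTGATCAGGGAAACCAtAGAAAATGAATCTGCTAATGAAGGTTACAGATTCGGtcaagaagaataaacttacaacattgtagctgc
The last pair shows a base by which a read could tell the copies apart in AT2G07674 (chr2:3268932-3269906, plus strand). The windows are chr2:3269399-3269446 and bases 287435 to 287482 of the mitochondrial genome. The substitution, in capitals, is A25G, counted from the first base shown and with the chromosome 2 base given first.
Chromosome 2: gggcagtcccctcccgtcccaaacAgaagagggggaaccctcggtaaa
Mitochondrial copy: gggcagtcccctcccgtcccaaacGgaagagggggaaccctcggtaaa

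Values are RPM per row, summed over the deposited columns for 21, 22, 23 and 24 nt reads. The libraries held 3578524 (35-day GFP, replicate 1) to 99594348 (7-day AGO9, replicate 2) read assignments, so that 3 reads, used here as the floor for a row at 0, were worth 0.838 to 0.0301 RPM. Both 35-day GFP libraries were shallow, with floors of 0.838 and 0.721 RPM. Within the insertion, 177 rows had a read in some library and 31 had none. Of those 31, 30 lie inside another row, and these are all the rows that do, so no such row had a read. In all, 81 rows overlap another, and AT2G07761 and AT2G07753 have the same values throughout. The 128 rows with a mean of at least 1 RPM entered the tests, which were fitted with limma on log2(RPM + 1) across 17020 genes and TEs of the whole genome, with Benjamini-Hochberg adjusted p under 0.05 as the call. Whether partly overlapping rows or rows on opposite strands share reads cannot be told, since the counting of such reads and the use of strand are not stated.

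One transcript, AT2G07706, set how many reads the insertion had in GFP seedlings. Summed over the 208 rows, 7-day libraries had 2650.0 and 2405 RPM with AGO5, 3012 and 2063 RPM with AGO9, 8442 and 11349.9 RPM with GFP, and 2198 and 2189.9 RPM in input. Both GFP sums stood above the other 6 seedling libraries, which overlapped between AGO9 and input. AT2G07706 (chr2:3381463-3386102, minus strand, 4640 bp), a protein of unknown function, had 452 and 32.9 RPM with AGO5, 966 and 206 RPM with AGO9, 6038 and 9680 RPM with GFP, and 154 and 129 RPM in input at 7 days. Its GFP values were the highest, and its AGO5 libraries lay on either side of the inputs. Without it, the GFP sums were 2404 and 1669 RPM, against 2044 and 2061 RPM in input, and the ranges overlapped. The log2 difference of the sum between GFP and input was 2.16 with AT2G07706 and -0.04 without it. With 2 libraries against 2, the exact two-sided permutation p could not go below 0.33, which was its value with AT2G07706. It was 1 without it. AT2G07706 carried 46.5% of the mean RPM of the insertion over the 16 libraries, and the 10 rows with the most reads carried 68.5%.

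In the fit across the genome, AT2G07706 was lower with AGO5 than with GFP in seedlings, by a log2 difference of -5.95 (SE 0.99, limma adjusted p = 0.00108). Its AGO9 to GFP difference was -4.10 (limma adjusted p = 0.00397), and without AGO9 replicate 2 it was -2.98 with an adjusted p of 0.0502. GFP exceeded input by 5.75 (limma adjusted p = 0.00366), while edgeR on reads gave 7.07 with an adjusted p of 0.134. At 35 days the transcript had 27.8 and 35.4 RPM with AGO5, 2.66 and 3.98 RPM with AGO9, 44.4 and 76.2 RPM with GFP, and 16.5 and 6.39 RPM in input. GFP was again the highest and AGO9 the lowest, and no 2 groups overlapped.

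**Figure D1:**
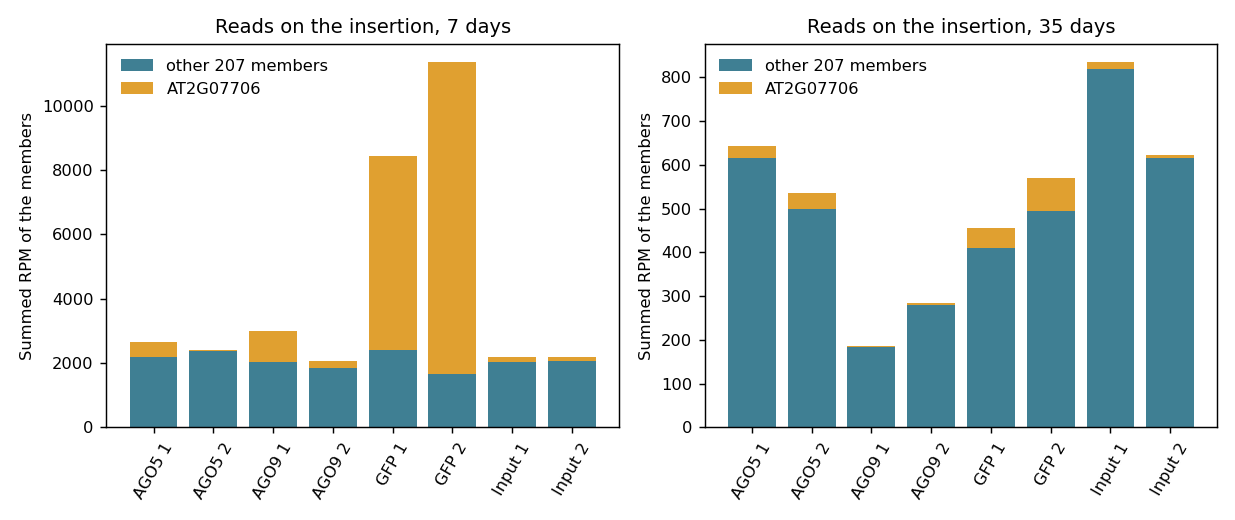
Summed RPM of the 208 rows in each of the 16 libraries, by group and age, with the part from AT2G07706 shown apart from the rest. The 7-day GFP libraries reached 8442 and 11349.9 RPM, but 2404 and 1669 RPM once AT2G07706 was left out.

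Inflorescence libraries had less RPM on the insertion than seedling libraries. The 35-day sums were 643 and 534 RPM with AGO5, 186 and 283 RPM with AGO9, 455 and 571 RPM with GFP, and 834 and 623 RPM in input. Both AGO9 libraries were below the other 6. Input at 35 days differed from input at 7 days by -1.61 on the log2 scale, and AGO9 at 35 days from its input by -1.65. Both differences had the smallest exact permutation p the design allows, 0.33. Much of the input change lay in 6 rows with at least 25% of their 24 nt words in the plastid genome. Their mean input sum was 1020 RPM at 7 days and 135 RPM at 35 days. Without them and AT2G07706, the input means were 1032 and 582 RPM. On the rows of the mitochondrial genome itself, they were 2606 and 976 RPM. Counted as reads, input had 29446 and 33234 at 35 days and 33986 and 31744 at 7 days, and the ranges overlapped. The 35-day inputs were deeper, with 35297704 and 53379641 read assignments, against 15459547 and 14495665 at 7 days. These read counts therefore do not compare levels between the ages. RPM is a share of the library. In bulk tissue, fewer cells of a type, less RNA per cell and more reads from other features cannot be told apart.

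Read length separated the AGO9 libraries from the rest. At 7 days, 24 nt reads made up 35.1% and 51.3% of the reads on the insertion with AGO5, 59.1% and 85.3% with AGO9, 30.3% and 34.5% with GFP, and 26.7% and 26.9% in input. At 35 days the shares were 32.7% and 27.8% with AGO5, 86.8% and 56.9% with AGO9, 25.5% and 32.4% with GFP, and 25.7% and 30.9% in input. At both ages the AGO9 libraries were above every other library, and the 2 AGO9 replicates were far apart. The 95% Wilson intervals, which cover counting error only, reached 0.15 to 2.12 percentage points to either side. AGO9 exceeded input by 45.4 points at 7 days and 43.6 points at 35 days, with p = 0.33 in each exact permutation test, the smallest possible here.

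The high 24 nt share was not particular to the insertion. Over all rows of the table, the 7-day AGO9 libraries had 76.4% and 89.8% of reads at 24 nt, against 35.7% and 37.1% in input. Over the rows of the mitochondrial genome itself, the 7-day AGO9 libraries had 53.4% and 79.5%, against 21.9% and 21.9% in input. In input, the 24 nt share on the insertion was below that over all rows at both ages. At 7 days it was 26.7% and 26.9%, against 35.7% and 37.1% over all rows. At 35 days it was 25.7% and 30.9%, against 48.8% and 56.2% over all rows. On the rows of the mitochondrial genome, the 35-day input shares were 21.2% and 24.9%.

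AGO5 in seedlings had a higher share of 22 nt reads than input. These made up 30.2% and 36.2% of the insertion's reads with AGO5, against 24.3% and 24.7% in input. Without AT2G07706 the shares were 30.6% and 36.3% with AGO5, 30.6% and 32.4% with GFP, and 24.1% and 24.3% in input, so AGO5 overlapped GFP. Of the 40 rows with at least 100 reads in each AGO5 and input library at 7 days, 26 had a higher 22 nt share in both AGO5 libraries than in both inputs and 2 a lower one. By the same rule, 69.8% of 6962 other rows of the genome were higher and 5.16% lower. The 24 nt share was higher in 22 of the 40 and lower in 3, against 57.2% and 15.6% of the other rows. Both counts of higher rows were near the shares over the other rows.

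**Figure D2:**
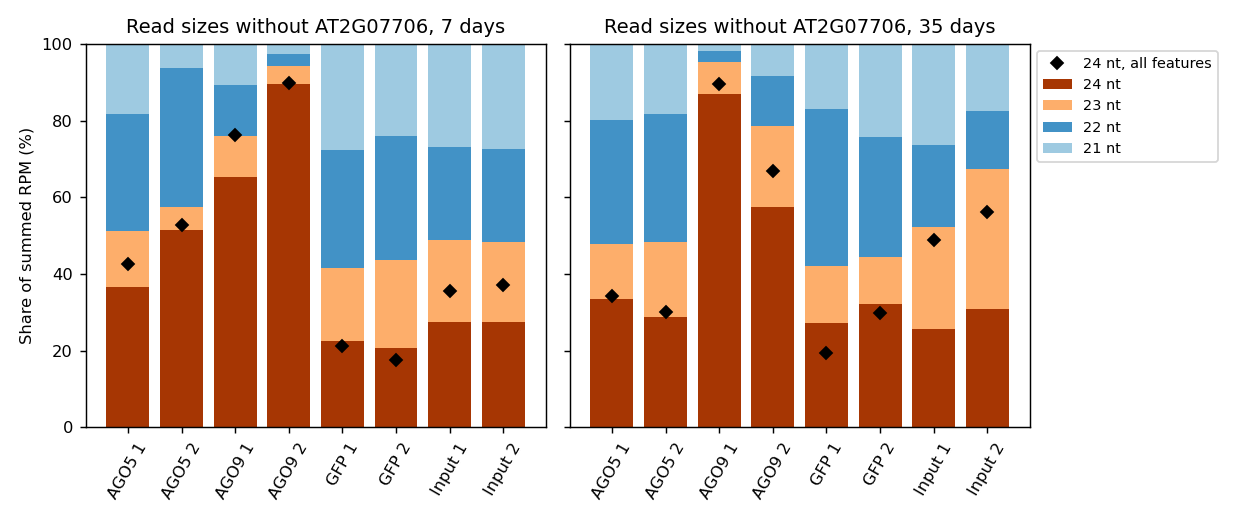
Stacked shares, in percent of summed RPM, of 21, 22, 23 and 24 nt reads on the insertion without AT2G07706 in each of the 16 libraries. Diamonds mark the 24 nt share over all features of the table. Without AT2G07706, the 24 nt part was 65.3% and 89.6% in the 7-day AGO9 libraries, against 27.4% and 27.5% in their inputs.

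Row by row, the shift to 24 nt in AGO9 was present in nearly every row with enough reads to measure it. Of 41 rows with at least 100 reads in each AGO9 and input library at 7 days, 39 had a higher 24 nt share in both AGO9 libraries, none had a lower one, and 2 overlapped. Among 7173 other rows that met the same minimum, 95.7% were higher and 0.836% lower. The 2 that overlapped were the tRNA genes AT2G07748, for tryptophan, and AT2G07766, for serine. Over the rows with 100 reads in that library, the median 24 nt share was 82.8% and 94.7% in the AGO9 libraries, and 25% and 26.9% in the inputs.

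**Figure D3:**
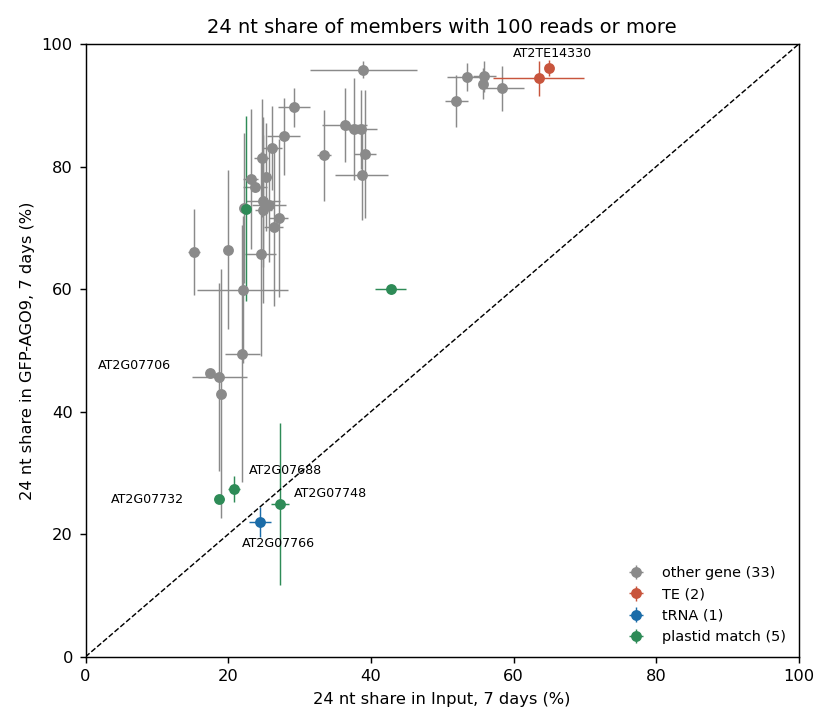
Share of 24 nt reads, in percent, in AGO9 (vertical axis) and input (horizontal axis) at 7 days for the 41 rows with at least 100 reads in each library. Points are means, bars span the 2 libraries, and the dashed line marks equal shares. In 39 rows both AGO9 libraries lie above both inputs.

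The rows that match the plastid genome varied in this shift. The tryptophan tRNA gene AT2G07748, with 98.0% of its 24 nt words in the plastid genome, overlapped input. Its 24 nt shares were 11.6% and 38.1% with AGO9 at 7 days, against 28.5% and 26.0% in input. AT2G07739, which resembles the plastid gene ycf1, had 24 nt shares of 58.1% and 88.2% with AGO9, against 23.1% and 22.01% in input, and AT2G07743 had 59.3% and 60.6%, against 44.9% and 40.6%. In both rows each AGO9 library was above both inputs. AT2G07732, the rbcL-like row, had 24 nt shares of 25.1% and 26.2% with AGO9 at 7 days, against 19.4% and 18.1% in input. That was a small shift in the same direction. The levels of AT2G07732 were 158 and 14.3 RPM with AGO5, 68.8 and 20.5 RPM with AGO9, 568 and 257 RPM with GFP, and 584 and 597 RPM in input. Both AGO groups lay below GFP and input, with wide gaps between replicates. The AGO9 to input difference of AT2G07732 was -3.93 (limma adjusted p = 0.0384), and the call was lost with a pseudocount of 0.5 (adjusted p = 0.068), without a filter (0.0625), with edgeR (0.129) and without any 1 of the 4 libraries (0.0626 to 0.235). AT2G07688, the photosystem II pseudogene, had 105 and 15.1 RPM with AGO5, 49.7 and 17.8 RPM with AGO9, 250.0 and 155 RPM with GFP, and 251.5 and 234 RPM in input. It shared the order of AT2G07732, with both AGO groups lowest.

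Over the 6 rows with at least 25% of their 24 nt words in the plastid genome, the 7-day sums were 304 and 45.6 RPM with AGO5, 146 and 58.5 RPM with AGO9, 845 and 465 RPM with GFP, and 1017 and 1023 RPM in input. Their 24 nt share was 29.6% and 45.9% with AGO9, against 23.4% and 21.8% in input. These rows were grouped after their values were seen, and no test was made.

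Summed over the TEs of the insertion, both Argonautes had more RPM than either control in seedlings. The 38 TE rows summed to 213 and 441 RPM with AGO5, 283 and 375 RPM with AGO9, 40.2 and 51.9 RPM with GFP, and 67.5 and 79.2 RPM in input. AT2TE14330 alone had means of 222 of 327 RPM with AGO5, 200 of 329 with AGO9, 25.2 of 46.1 with GFP and 42.4 of 73.3 in input. Of 12 tested TEs, 3 were called higher than input with AGO5 (background 7.73%) and 4 with AGO9 (background 17.6%). For the sum, every AGO5 and AGO9 library stood above every GFP and input library. This order was not particular to TEs, since the means of the complex I, ribosomal protein, and maturase and transporter copies had it too. Ribosomal protein copies, for one, summed to 127 ± 29.5 RPM with AGO5, 97.7 ± 1.56 RPM with AGO9, 74.4 ± 23.4 RPM with GFP and 60.5 ± 0.0602 RPM in input (SD, n = 2 each). Reads on the TE rows were 24 nt long in 62.5% and 59.3% with AGO5 and in 93.6% and 97.3% with AGO9. The TE shares were 42.9% and 42.0% with GFP, and 64.0% and 61.3% in input. So the input share on TEs was already above that on the insertion as a whole.

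AT2TE14330 had 142 and 303 RPM with AGO5, 169.9 and 230.2 RPM with AGO9, 22.6 and 27.8 RPM with GFP, and 39.5 and 45.3 RPM in input at 7 days. AGO5 and AGO9 overlapped each other and lay above both controls. AGO5 exceeded GFP by 2.998 on the log2 scale (SE 0.37, limma adjusted p = 0.000413). AGO9 exceeded GFP by 2.93 (SE 0.37, limma adjusted p = 0.000101), but by 0.94 with edgeR (adjusted p = 0.118). Against input, AT2TE14330 was higher by 2.27 with AGO5 (limma adjusted p = 0.00703) and 2.20 with AGO9 (limma adjusted p = 0.0041). The AGO5 call was lost without AGO5 replicate 2 (adjusted p = 0.0882), input replicate 1 (0.0765) or input replicate 2 (0.0759). The AGO9 call was lost without input replicate 1 (adjusted p = 0.0537).

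The order changed with age. In 35-day tissue AT2TE14330 had 54.0 and 49.9 RPM with AGO5, 4.20 and 4.73 RPM with AGO9, 25.2 and 24.8 RPM with GFP, and 17.2 and 21.5 RPM in input. AGO9 was the lowest of the 4 and AGO5 the highest, with no overlap. AGO5 exceeded AGO9 by 3.28 at 35 days (SE 0.37, limma adjusted p = 0.000174) and by 0.07 at 7 days. That change with age was tested as an interaction and was 3.21 (limma adjusted p = 0.0117). The neighbouring AT2TE14320 (chr2:3308220-3308973, plus strand) had 32.6 and 70.04 RPM with AGO5, 38.4 and 48.1 RPM with AGO9, 1.59 and 5.57 RPM with GFP, and 8.60 and 11.1 RPM in input at 7 days. It showed the same order as AT2TE14330. AGO5 exceeded GFP by 3.57 (SE 0.66, limma adjusted p = 0.00202).

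**Figure D4:**
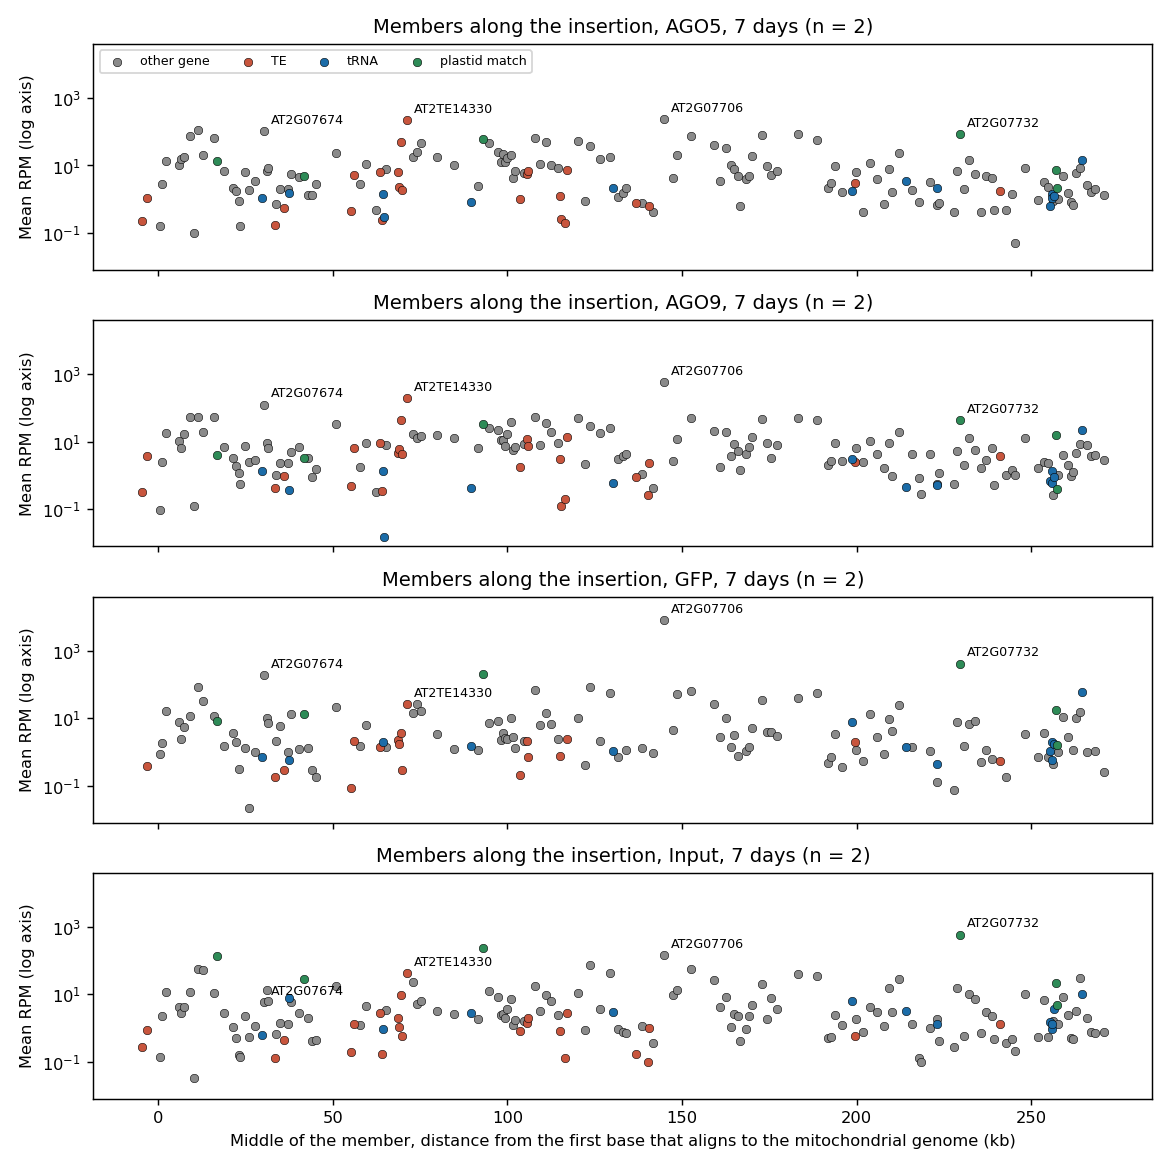
Mean RPM (log axis, n = 2) of each row in AGO5, AGO9, GFP and input libraries at 7 days, by distance in kb from the first base that aligns to the mitochondrial genome. Rows with no read in a group are not drawn. Colours mark TEs, tRNA genes and the 6 rows that match the plastid genome. AT2TE14330 stands higher in the AGO5 and AGO9 panels and AT2G07706 in the GFP panel.

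Counted over the 128 tested rows, AGO5 seedlings had 22 rows higher than input and 5 lower, and the background over all 17020 features was 7.73% higher and 10.4% lower. Quantile normalization gave 43 higher and 4 lower, and edgeR on reads 11 and 0. AGO9 seedlings had 29 rows higher than input and 4 lower, against a background of 17.6% and 9.48%. Quantile normalization gave 15 and 10, and edgeR 2 and 1. The members' median log2 difference was 0.65 with AGO5 and 0.97 with AGO9, beside -0.30 and 0.65 over all features. The size of these medians depended on scaling, but the members' median against input stayed above that over all features. After quantile normalization the medians were 1.09 beside 0.00093 with AGO5, and 0.552 beside 0.261 with AGO9. In edgeR they were 1.499 beside 0.024 with AGO5, and 0.504 beside 0.103 with AGO9. For AGO5 against GFP at 7 days, the median over all features was 0.73 with RPM and -0.03 after quantile normalization.

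Against GFP, 25 rows were higher and 2 lower with AGO5 at 7 days (background 24.5% and 1.39%), which is near the background. Quantile normalization turned this to 6 and 12, and edgeR gave 4 and 1. With AGO9, 47 were higher and 4 lower than with GFP (background 60.2% and 4.92%), and 3 and 37 after quantile normalization, or 1 and 9 with edgeR. The direction of the AGO9 to GFP comparison over the insertion thus depended on the scaling. AGO9 to GFP medians were 0.90 in the members and 1.76 over all features. GFP against input gave 2 higher and 2 lower (background 0.182% and 26%), and 13 and 0 after quantile normalization. edgeR called none there, and limma had 10 at an unadjusted p under 0.05. AGO5 against AGO9 gave 1 higher and 1 lower (background 3.44% and 21.5%), 7 and 0 after quantile normalization, and 2 and 0 with edgeR. AT2G07777 was the higher one and AT2G00520 the lower. The call of AT2G07777 was lost in 3 of 10 alternatives, without AGO5 replicate 2, AGO9 replicate 1 or AGO9 replicate 2 (adjusted p of 0.167, 0.119 and 0.162). That of AT2G00520 was lost in 9 of 10, with a log2 difference from -1.43 to -0.31 and an adjusted p of up to 0.878.

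The copies of respiratory chain genes are described next by complex. Complex I copies (NADH dehydrogenase subunits, 21 rows, 15 tested) summed to 388 ± 52.9 RPM with AGO5, 249 ± 0.673 RPM with AGO9, 189 ± 70.3 RPM with GFP and 202 ± 4.85 RPM in input at 7 days (SD, n = 2 each). Among these, 5 were called higher with AGO5 than in input (background 7.73%) and 3 with AGO9 (background 17.6%), and the AGO9 count is near its background. The pseudogene copies of NADH dehydrogenase subunits 7 (AT2G07709) and 4 (AT2G07717) had the most reads of the class and passed in neither comparison.

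ATP synthase copies (6 rows, all tested) summed to 199.4 ± 16.6 RPM with AGO5, 139 ± 33.1 RPM with AGO9, 273 ± 64.6 RPM with GFP and 263 ± 8.18 RPM in input at 7 days. The one call against input was lower, with AGO5 (background 10.4%). AT2G07777 (chr2:3249396-3251545), which matches ATP synthase subunit 9 of the proton channel, had 90.2 and 132 RPM with AGO5, 55.6 and 50.4 RPM with AGO9, 85.4 and 79.0 RPM with GFP, and 58.8 and 54.4 RPM in input. Only AGO5 was above GFP in both libraries, and AGO9 overlapped input.

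Complex III (cytochrome b, 3 rows) and complex IV (cytochrome c oxidase, 2 rows) had no limma call at 7 days in any of the 6 comparisons. Nor did the cytochrome c maturation genes (9 rows, 6 tested), which attach haem to cytochromes, or the maturase and transporter copies (3 rows). Over these 84 tests of 14 rows, 5 had an unadjusted p under 0.05 in limma and edgeR called 1. Ribosomal protein copies (7 rows) had 1 higher call with AGO5 and 2 with AGO9 against input (background 7.73% and 17.6%). The remaining open reading frames and transcripts (96 rows, 61 tested) had 13 higher calls with AGO5 (background 7.73%), and 20 higher and 1 lower with AGO9 (background 17.6% and 9.48%).

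Among tRNA genes, the calls against input were nearly all lower. The 23 tRNA rows, of which 13 were tested, summed to 54.6 ± 32.4 RPM with AGO5, 41.8 ± 25.8 RPM with AGO9, 104 ± 55.8 RPM with GFP and 210 ± 5.39 RPM in input at 7 days. Against input, 4 were lower with AGO5 (background 10.4% of all features lower), 3 with AGO9 (9.48%) and 2 with GFP (26%). At 35 days 6 were lower with AGO5 (background 24.2%), 6 with AGO9 (6.26%) and 5 with GFP (44.5%), and 1 was higher with GFP (1.1%). The lower calls with GFP made up a smaller share of the 13 rows than of all features at both ages.

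AT2G07746, the glutamine tRNA gene, was the extreme case. At 35 days it had 0 and 0.959 RPM with AGO5, 0 and 0.249 RPM with AGO9, 0 and 0 RPM with GFP, and 71.1 and 137 RPM in input. No precipitated library came near the inputs. On the log2 scale AT2G07746 differed from input by -6.15 with AGO5 (limma adjusted p = 6.68e-05) and by -6.48 with AGO9 (limma adjusted p = 7.11e-06). Against the floor of 3 reads per library, it was at least 133-fold lower with GFP (limma adjusted p = 2.03e-05). At 7 days it had 1.51 and 1.52 RPM with AGO5, 0.537 and 0.191 RPM with AGO9, 0.652 and 0.518 RPM with GFP, and 7.89 and 7.45 RPM in input, and every precipitated library was again below both inputs. Its input was higher at 35 than at 7 days by 3.52 (limma adjusted p = 0.000259), while edgeR gave 3.16 with an adjusted p of 0.235.

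AT2G07743, the aspartate tRNA gene, had 18.8 and 9.03 RPM with AGO5, 4.84 and 3.49 RPM with AGO9, 6.59 and 10.01 RPM with GFP, and 128 and 138 RPM in input at 7 days. Inputs were far above the 6 precipitated libraries. AGO9 was lower than input by a log2 difference of -4.71 (limma adjusted p = 0.0041), and without input replicate 1 the adjusted p was 0.0516. In 35-day tissue GFP no longer lay below input, at 46.4 and 58.9 RPM with GFP, against 56.8 and 36.9 RPM in input.

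**Figure D5:**
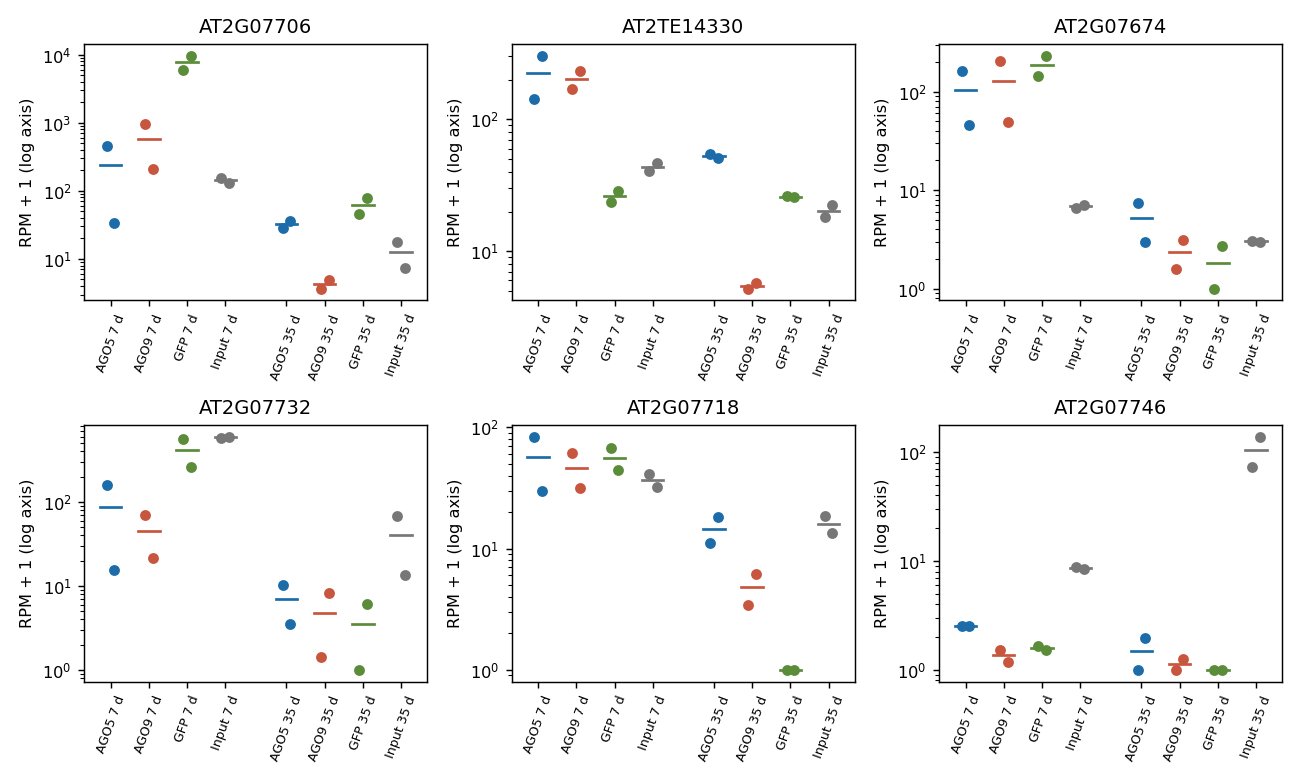
RPM + 1 (log axis) of 6 named rows in the 16 libraries, with a point per library and a line at the group mean. AT2G07706 is highest in GFP, AT2TE14330 in AGO5 and AGO9 at 7 days, and AT2G07746 in input at both ages.

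The 2 higher rows in GFP against input at 7 days were AT2G07706 and AT2G07674. AT2G07674, a conserved protein of unknown function, had 162 and 44.3 RPM with AGO5, 204 and 48.6 RPM with AGO9, 143 and 231 RPM with GFP, and 5.56 and 6.14 RPM in input. All 3 precipitations were above input and overlapped one another. GFP exceeded input by 4.74 (limma adjusted p = 0.00336), with an adjusted p of 0.134 in edgeR. Its reads with AGO9 were 24 nt long in only 9.003% and 27.9%, against 32.6% and 31.5% in input.

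At 35 days, AGO5 had 33 rows higher and 4 lower than GFP (background 24.5% and 5.26%), and AGO9 13 and 9 (background 38.5% and 6.5%). Quantile normalization changed the AGO5 split to 6 and 8 and the AGO9 split to 1 and 19, while edgeR gave 47 and 4 with AGO5 and 27 and 13 with AGO9, the direction of the RPM fit. The rows named next had no read in either GFP library. AT2G07718 (chr2:3424685-3430483) is annotated as a cytochrome b/b6 protein. It had 10.03 and 17.2 RPM with AGO5, 2.40 and 5.22 RPM with AGO9, 0 and 0 RPM with GFP, and 17.6 and 12.4 RPM in input. AGO5 was at least 17.4-fold higher than GFP, counted against 3 reads per library (limma adjusted p = 0.000469). AT2G07687, the copy of cytochrome c oxidase subunit III (chr2:3311654-3312651), had 5.49 and 7.06 RPM with AGO5, 21.8 and 13.3 RPM with AGO9, 0 and 0 RPM with GFP, and 16.3 and 7.72 RPM in input. AGO9 overlapped input and was at least 22.5-fold higher than GFP (limma adjusted p = 0.000111). Both AGO9 libraries exceeded both AGO5 libraries for AT2G07687, and their reads were 24 nt long in 93.3% and 80.4%.

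Against input at 35 days, 6 rows were higher with AGO5 and 8 lower (background 3.84% and 24.2%), and 16 and 3 after quantile normalization. With AGO9, 0 were higher and 11 lower (background 3.59% and 6.26%). Of the 128 rows, 33 had an unadjusted p under 0.05 in limma, and edgeR called 0 higher and 2 lower. GFP had 1 higher and 36 lower (background 1.1% and 44.5%), turned to 11 and 2 by quantile normalization. AGO5 against AGO9 at 35 days gave 15 higher and 0 lower (background 7.06% and 18.6%), 18 and 0 after quantile normalization and 15 and 3 with edgeR. The median difference of AGO5 against AGO9 was 0.53 in the members and -0.34 over all features. AT2G07827, of unknown function, had 14.2 and 9.42 RPM with AGO5, against 0.943 and 0 RPM with AGO9. It was higher with AGO5 by 3.17 (SE 0.54, limma adjusted p = 0.00165).

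In 24 nt reads alone, 93 rows were tested among 14054 features. At 7 days 48 were higher and 2 lower with AGO5 than with GFP (background 42.1% higher, 42.7% called in either direction), and 10 and 12 after quantile normalization. With AGO9, 62 were higher and 3 lower than with GFP (background 82.2% higher, 83.4% in either direction), 4 and 22 after quantile normalization, and 1 and 7 with edgeR. AGO5 against AGO9 gave 0 higher and 14 lower (background 3.05% higher, 45.5% in either direction) and 5 and 0 after quantile normalization. edgeR called none there, and limma had 19 at an unadjusted p under 0.05. At 35 days AGO5 had 17 higher and 1 lower than GFP (background 25.5% higher, 29.9% in either direction), or 6 and 4 after quantile normalization. AGO9 had 28 and 3 (background 64.2% higher, 65.4% in either direction), 1 and 24 after quantile normalization, and 20 and 8 with edgeR. AGO5 against AGO9 at 35 days gave 5 higher and 8 lower (background 2.74% higher, 43.3% in either direction), 11 and 0 after quantile normalization, and 9 and 3 with edgeR.

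Between the inputs, 2 rows were higher and 8 lower at 35 than at 7 days (background 11.2% and 5.44%), 2 and 24 after quantile normalization. Their median log2 difference was -0.80, beside 0.48 over all features. Both higher rows were tRNA genes, AT2G07746 and the proline tRNA gene AT2G07762. The call of AT2G07762 was lost in 8 of its 10 alternatives.

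Of the insertion's gene rows, 54 have a named partner among the rows of the mitochondrial genome, but only 9 of these pairs are of equal length, and the levels of the others cover different stretches. Among the 9, the chromosome 2 row had more RPM per kb, averaged over the 16 libraries, in 4. The widest gap was in AT2G07707, with 6.41 RPM per kb on chromosome 2, against 1118 RPM per kb for its partner ATMG00480. AT2G07675 had the most of the 9 on chromosome 2, at 10.9 RPM per kb, against 3.17 RPM per kb for ATMG00980. How reads of a shared sequence were divided between the copies cannot be read from these levels. The files' mitochondrial rows end at base 366700, so their mitochondrial reference differs from the RefSeq one used for the alignments.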

How the data were processed

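RIP-seq small RNA libraries were analysed from 1 deposited table of the series. Its values are RPM, made by the authors. Per the submitters' processing notes, the tools were cutadapt 1.18, Bowtie2 2.3.5.1 and featureCounts of Subread 2.0.1, with TAIR10 as the build. The placement of reads with several matches and the use of strand are not given in the sources used here. The RPM steps gave whole reads for 100% of values, with a depth of 3578524 to 99594348 read assignments per library. For 35-day AGO5 replicate 1, the deposited column that combines the sizes came to 0.0597 of their sum, by a step the authors do not state, and is treated as a score and not used.

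From the deposited RPM, log2(RPM + 1) of the summed sizes was fitted for 8 groups and 16 libraries with limma 3.58.1 in R 4.3.3 (lmFit, eBayes with trend), for rows with a mean of at least 1 RPM. p-values were adjusted by Benjamini-Hochberg over 17020 rows, or 14054 for 24 nt reads. Sums and shares were compared by exact two-sided permutation tests. Sequences and identities came from RefSeq TAIR10.1 with BLAST 2.17.0. The fit was tested on simulated data.

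The members were set by position alone, but they and the lists were chosen with earlier results of these data known. Rows named were the 10 genes and 5 TEs with the highest mean, the 2 largest called differences per direction and comparison, the top row of each role, and AT2G07674 and AT2G07746, which an earlier account named. Alternatives were a pseudocount of 0.5, no filter, quantile normalization, edgeR 4.0.16 on the recovered reads, a replicate block, leaving out each library, leaving out both 35-day GFP libraries, and, for sums, leaving out classes of rows or AT2G07706 (the last chosen after seeing the data).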

Additional observations from a re-analysis of the deposited data

Results flagged for a closer look

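These results differed between 35 and 7 days in an interaction test (limma, adjusted over 17020 rows), and each value is the 35-day log2 difference minus the 7-day one. The alternatives were not run on these interaction tests, and no cause was tested. Where a group had no read at 35 days, the value depends on the pseudocount.

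AT2TE14330, the TE with the most reads, changed in 4 comparisons. Its AGO5 to GFP difference changed by -1.97 (limma adjusted p = 0.0342; 1.03 at 35 days, 2.998 at 7 days). Its AGO9 to GFP difference changed by -5.18 (limma adjusted p = 0.00014; -2.25 at 35 days, 2.93 at 7 days), and its AGO9 to input difference by -4.09 (limma adjusted p = 0.00244; -1.89 at 35 days, 2.20 at 7 days). Its AGO5 to AGO9 difference changed by 3.21 (limma adjusted p = 0.0117). For the neighbouring TE, AT2TE14320, the AGO9 to GFP difference changed by -3.21 (limma adjusted p = 0.0344; 0.21 at 35 days, 3.41 at 7 days).

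For AT2G07706, the AGO5 to GFP difference changed by 5.08 (limma adjusted p = 0.0398; -0.87 at 35 days, -5.95 at 7 days). For the unknown protein AT2G07674, the GFP to input difference changed by -5.62 (limma adjusted p = 0.0345; -0.88 at 35 days, 4.74 at 7 days). For AT2G07779, also of unknown function, the AGO9 to input difference changed by -2.93 (limma adjusted p = 0.0325; -0.70 at 35 days, 2.236 at 7 days).

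AT2G07718, annotated as a cytochrome b/b6 protein, had no read in the 35-day GFP libraries. Its AGO5 to GFP difference changed by 3.97 (limma adjusted p = 0.0117), its AGO9 to GFP difference by 2.52 (limma adjusted p = 0.0432) and its GFP to input difference by -4.57 (limma adjusted p = 0.0212). AT2G07687, the copy of cytochrome c oxidase subunit III, also had no read there, and its AGO9 to GFP difference changed by 3.71 (limma adjusted p = 0.0083). For the glutamine tRNA gene AT2G07746, the difference from input changed by -4.37 with AGO5 (limma adjusted p = 0.0144), by -3.80 with AGO9 (limma adjusted p = 0.00896) and by -4.19 with GFP (limma adjusted p = 0.0132).

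The summed RPM of the insertion moved in opposite directions in GFP against input, 2.16 at 7 days and -0.50 at 35 days. That change of -2.66 was not tested.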

How the results depend on the processing

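Without AT2G07706, the log2 difference of the summed RPM reversed for AGO5 against GFP (0.19), AGO9 against input (-0.074) and GFP against input (-0.035) at 7 days, and the 24 nt share of GFP against input was -5.83 points. Without tRNA rows, AGO5 against input at 35 days was 0.20 in summed RPM and -2.82 points in share, and GFP against input was -2.99 points. With gene rows alone, the share of AGO5 against GFP at 35 days was -1.52 points. Leaving out 1 library gave sums from -0.089 to 0.46 for AGO9 against input and from -0.25 to 0.29 for AGO5 against AGO9 at 7 days. Shares ran from -2.17 to 4.72 points for AGO5 against GFP, -0.61 to 4.58 for AGO5 against input and -2.73 to 4.16 for GFP against input at 35 days, and -1.14 to 4.05 between the inputs.

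Counts of called rows depended most on scaling. In the order AGO5 and AGO9 against GFP, AGO5 and GFP against input and AGO5 against AGO9, quantile normalization called 18, 40, 47, 13 and 7 rows at 7 days. At 35 days it called 14 and 20 against GFP and 19 (AGO5) and 13 (GFP) against input, with 26 between the inputs. In 24 nt reads it called 22, 26 and 5 at 7 days and 10, 25 and 11 at 35 days for AGO5 against GFP, AGO9 against GFP and AGO5 against AGO9. At 7 days edgeR called 5 and 10 against GFP, 11 (AGO5), 3 (AGO9) and 0 (GFP) against input. At 35 days it called 40 for AGO9 against GFP and 2 for AGO9 against input. In 24 nt reads it called 8, 8 and 0 at 7 days, and 33 (AGO5 against GFP) and 12 (AGO5 against AGO9) at 35 days. A pseudocount of 0.5 gave 15 for AGO5 against input and 1 for AGO5 against AGO9 at 7 days. Without a filter these were 6 for AGO5 against AGO9 at 7 days and 5 between the inputs, and in 24 nt reads 115 (AGO9 against GFP) and 40 (AGO5 against AGO9) at 7 days. Without both 35-day GFP libraries the counts at 7 days were 52 (AGO5 against GFP), 49, 60 and 14 (AGO5, AGO9 and GFP against input) and 7 (AGO5 against AGO9). At 35 days they were 26 and 29 (AGO5 and AGO9 against input) and 32 (AGO5 against AGO9), with 30 between the inputs. The cause of these changes was not tested.

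Leaving out 1 library gave, at 7 days, 7 to 32 and 23 to 39 rows for AGO5 and AGO9 against GFP, 0 to 33, 0 to 17 and 2 to 6 for AGO5, AGO9 and GFP against input, and 0 to 2 for AGO5 against AGO9. At 35 days these were 22 to 64 and 17 to 45, then 5 to 16, 3 to 9 and 19 to 58, and 7 to 17. Between the inputs 2 were called each time. In 24 nt reads the ranges were 30 to 47 (AGO5 against GFP) and 2 to 18 (AGO5 against AGO9) at 7 days, and 14 to 28, 18 to 34 and 8 to 12 at 35 days.

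The replicate block moved none of the 19 counts by over 1.5 times (for AGO5 against input at 7 days it called 24 rows), and 64 of 66 named results kept their call. AT2G00520 (AGO5 against AGO9, adjusted p = 0.0517) and AT2G07748 (AGO5 against input, adjusted p = 0.0568), both at 7 days, lost it in limma. Deviations of same-numbered libraries correlated between -0.22 and 0.51 across rows, and with 2 libraries per group the numbers were not taken as pairs. Over the named results none reversed, 24 of 66 kept their call in every alternative, 28 lost it with edgeR, 10 with quantile normalization and 33 when 1 library was left out. Depth limits the 35-day GFP group most, where 3 reads are worth 0.838 and 0.721 RPM.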
